A study of Homo sapiens with 3 samples.

Results

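The mitochondrial genome of human cells is a small circular DNA molecule that encodes subunits of the respiratory chain together with the ribosomal and transfer RNAs of its own ribosomes. The genes described here are the rows of the count table whose symbol starts with MT-, which were 13 of 57268 rows. All 13 are messenger RNAs. The reference annotation lists 37 mitochondrially encoded genes, 13 protein-coding genes, 2 ribosomal RNA genes and 22 transfer RNA genes. No row matched a ribosomal or transfer RNA gene by symbol or identifier, so those 2 classes are not analysed here and the classes could not be compared. HEK 293T, a line derived from human embryonic kidney, was sequenced in 3 states with a single library for each. The source and cell line fields of the labels name HEK 293T, whereas the sample titles name HEK293, the parent line. Control cells had no overexpression. The second state was overexpression of ADAR2 alone and the third of ADAR2 and SRSF9 together, called ADAR2+SRSF9 here. ADAR2, encoded by ADARB1, converts adenosine to inosine in double-stranded RNA, and SRSF9 belongs to the SR proteins that regulate splicing. How the proteins were overexpressed, and whether the control received an empty vector, is not stated in the labels. The question of the study was the effect of SRSF9 on editing by ADAR2, whereas the counts used here give transcript levels.

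Mitochondrial DNA is transcribed from both strands as long RNAs that are cut at the transfer RNAs lying between the coding genes. The resulting messenger RNAs have no introns, and most receive a short poly(A) tail. For several of them the tail also supplies the missing letters of the stop codon. MT-ND6 is the only messenger RNA encoded on the opposite strand to the others and is known as the one without a stable poly(A) tail. Nuclear genes supply the RNA polymerase (POLRMT), its packaging and initiation factor (TFAM) and the LRPPRC-SLIRP complex that stabilises these messenger RNAs.

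In GENCODE v29 on GRCh38, which lists the 13 genes under the same identifiers and versions as the count table, 12 genes lie on the plus strand and MT-ND6 on the minus strand. Coding length ran from 207 nt (MT-ATP8) to 1812 nt (MT-ND5). In 6 of the 13 (MT-ND1, MT-ND2, MT-CO3, MT-ND3, MT-ND4 and MT-CYB) the gene ends in a partial stop codon of 1 or 2 bases. The last 15 bases are given for the 5 genes that differed most between the 2 overexpressing libraries, with the stop codon, whole or partial, in capitals. The genes are at chrM:14747-15887 (MT-CYB), chrM:7586-8269 (MT-CO2), chrM:8366-8572 (MT-ATP8), chrM:12337-14148 (MT-ND5) and chrM:14149-14673 (MT-ND6, minus strand).
MT-CYB: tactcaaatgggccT
MT-CO2: gtatttaccctaTAG
MT-ATP8: cccccacaatccTAG
MT-ND5: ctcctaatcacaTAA
MT-ND6: gctcgggggaatAGG
MT-CYB ends in a single T, and MT-ND6 in AGG, a codon that no human mitochondrial transfer RNA reads. MT-ND5 and MT-ND6 meet end to end with no base between them, on opposite strands.

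Neighbouring genes on the plus strand share bases in 3 places. MT-ATP8 and MT-ATP6 overlap by 46 nt at chrM:8527-8572, which is 22.2% of MT-ATP8 and 6.75% of MT-ATP6. MT-ND4L and MT-ND4 overlap by 7 nt, and MT-ATP6 and MT-CO3 by 1 nt. The stretch common to the ATP synthase genes is shown because its reads cannot be assigned to one of them by position, with the start codon of MT-ATP6 in capitals.
MT-ATP8 and MT-ATP6: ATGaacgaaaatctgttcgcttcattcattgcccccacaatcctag
How the authors' counting treated reads over shared bases is not given in the sources used here. Their setting for strand is not given either, so reads of MT-ND6 and reads of the opposite strand across it cannot be told apart.

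Total counts were 97875935 to 152878282 reads per library, and the 13 genes had from 60611 to 2446946 reads each. ADARB1 took 0.0115% of reads in control cells, 1.63% with ADAR2 and 1.34% with ADAR2+SRSF9. SRSF9 took 0.0376%, 0.0373% and 1.79% in the same order, which is that of all values given in threes. All 8 markers listed for HEK293T cells were at 1 CPM or more in every library, with a summed level of 750.1 to 790.1 CPM. In control cells they ran from 3.65 CPM (PAX2) to 299 CPM (NEFM). They were not compared with the parent line, so they do not decide between the names HEK 293T and HEK293. CPM is reads per 1000000 of library size after TMM scaling. Of the listed markers of fibroblasts (5), epithelial lines (4) and hepatocytes (2), COL1A1, EPCAM and CDH1 reached 1 CPM, and the summed levels were 33.2 to 39.1, 7.99 to 8.88 and 0.480 to 0.596 CPM for the 3 lists. THY1 and KRT5 were at 0 in all 3 libraries. With 1 library per group no difference has a replicate check and no test was possible. The 95% intervals below cover counting error only.

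The 13 messenger RNAs together held 6.847% of all reads in control cells (10467630 reads, exact Clopper-Pearson interval 6.843 to 6.851%). They held 6.510% with ADAR2 (8651169 reads, 6.506 to 6.514%) and 6.575% with ADAR2+SRSF9 (6435649 reads, 6.570 to 6.580%). With ADARB1 and SRSF9 left out of the totals, the shares were 6.85%, 6.62% and 6.79%. On the CPM scale the sums were 67756, 64437 and 67132 CPM. The ADAR2 library was thus the lowest of the 3 by each of these measures, and the control the highest. The summed level was 0.951 times the control with ADAR2 (0.9502 to 0.9519). With SRSF9 added it was 1.042 times the ADAR2 level (1.0408 to 1.0429) and 0.991 times the control (0.9898 to 0.9918). In such bulk libraries, fewer cells or mitochondria with these RNAs and less RNA in each cannot be told apart.

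The ratios against the control moved with base composition in nuclear protein-coding genes over the GC range of the members. The 13 genes are moderately AT-rich (GC content 39.6% for MT-ATP8 to 47.7% for MT-ND1). Among 9581 nuclear protein-coding genes at 10 CPM or more, genes with the GC content of the members had a trend value of -0.14 to -0.04 in log2 ratio of ADAR2 against control, and of -0.15 to -0.03 in ADAR2+SRSF9 against control. In ADAR2+SRSF9 against ADAR2 the trend at the members was -0.0066 to 0.0078. With the trend subtracted, the median log2 ratio of the members went from -0.08 to 0.0034 for ADAR2 against control and from -0.07 to 0.02 for ADAR2+SRSF9 against control. It stayed at 0.03 for ADAR2+SRSF9 against ADAR2. The members' median was thus below 0 against the control as measured, and not with the GC trend removed.

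Levels between genes were compared per kilobase of coding length. Genes that share 1 messenger RNA were not equal on this scale. MT-ATP8 was at 0.361, 0.362 and 0.321 times MT-ATP6 per kilobase, and MT-ND4L at 0.592, 0.584 and 0.573 times MT-ND4. The order below is therefore one of reads per length, not of transcript numbers. The order was led in each library by MT-CO1, MT-CO2, MT-ATP6 and MT-ND4, and MT-ND6 and MT-ND5 were the lowest, in that order. MT-CO1 and MT-CO2, catalytic core subunits of cytochrome c oxidase, were at 10272 and 10246 CPM per kilobase in control cells, 9376 and 10194 with ADAR2, and 9769 and 11390 with ADAR2+SRSF9. The 2 thus changed places between the control and the overexpressing libraries. At the other end MT-ND5 was at 2421, 2293 and 2069 CPM per kilobase and MT-ND6 at 2568, 2596 and 2241. The level of the highest gene was 4.24, 4.45 and 5.51 times that of the lowest, so the 13 levels spread most widely with ADAR2+SRSF9.

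**Figure D1:**
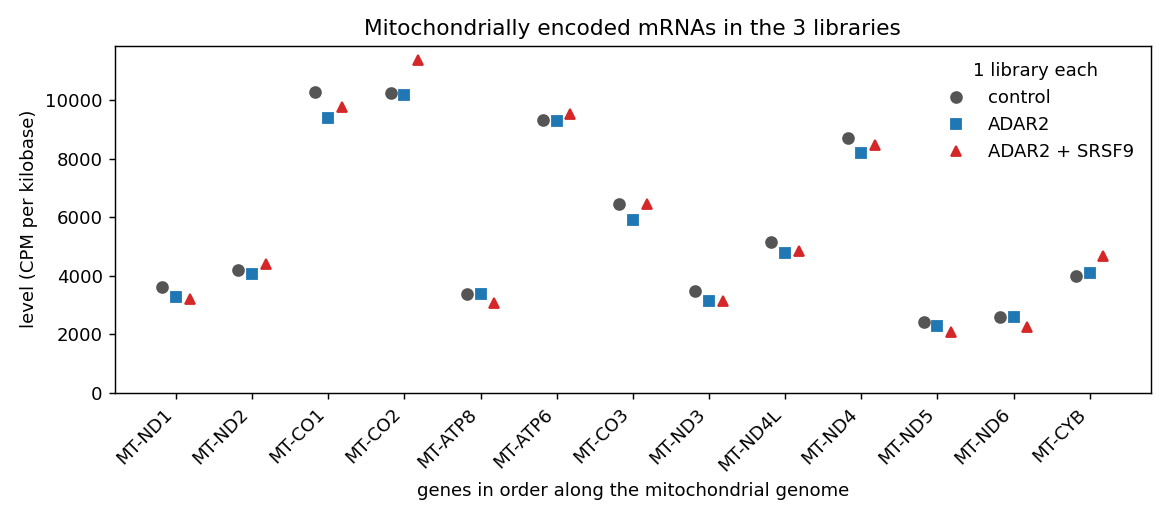
Level of each mitochondrially encoded messenger RNA in CPM per kilobase of coding length (vertical axis, from 0) for the 13 genes in their order along the mitochondrial genome, with 1 point per library for control (circles), ADAR2 (squares) and ADAR2 + SRSF9 (triangles). MT-CO1, MT-CO2, MT-ATP6 and MT-ND4 stood highest in each library and MT-ND5 lowest, at 2421, 2293 and 2069 CPM per kilobase.

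No member was 1.5-fold apart in any of the 3 comparisons. Over all 16072 genes with a mean of 1 CPM or more, 1.26% were that far apart in ADAR2 against control, 3.39% in ADAR2+SRSF9 against ADAR2 and 3.99% in ADAR2+SRSF9 against control, counting genes whose interval excluded 1. At 1.2-fold the members again counted 0 in each comparison, against 13.9%, 13.9% and 26.5% of all genes. At 1.1-fold, a threshold chosen after the values were seen, 2, 5 and 6 of the 13 members were apart, against 40.8%, 27.3% and 50.7% of all genes. In ADAR2 against control these were MT-ND1 and MT-ND3, both lower (19.9% of all genes were lower and 20.9% higher). With SRSF9 added to ADAR2, MT-CO2 and MT-CYB were higher (14.1% of all genes) and MT-ATP8, MT-ND5 and MT-ND6 lower (13.3%). Relative to the control, MT-CO2 and MT-CYB were higher in the third library (25.5%) and MT-ND1, MT-ND3, MT-ND5 and MT-ND6 lower (25.2%). With the GC trend removed, a setting added after the data were seen, the counts were 1, 4 and 5. The calls of MT-ND1 and MT-ND3 in ADAR2 against control were then lost (log2 ratios -0.11 and -0.02), and MT-ATP8 was higher (0.1435). Relative to the control, the third library lost MT-ND3 (-0.0093) and MT-ND6 (-0.09) and gained MT-ND2 (0.18), and MT-CYB passed 1.2-fold (0.29). MT-CO2, MT-CYB, MT-ND5 and MT-ND6 kept their calls with SRSF9 added to ADAR2, and MT-ATP8 did not (-0.1351). No share of all genes was counted with the trend removed, so the 1, 4 and 5 have no background share. Of the 157 genes at or above the lowest member's mean CPM, which include the 13 members, 21.7%, 12.7% and 22.9% were 1.1-fold apart. The members' share was below that of all genes against the control in both comparisons and above it in ADAR2+SRSF9 against ADAR2. It was above that of these 157 genes in both comparisons with the third library. All 13 had at least 632 CPM in each library, and the depth at such levels makes counting intervals narrow: these excluded 1 for 11, 12 and 12 members, as they did for 63.9%, 50.5% and 68.8% of all genes. An interval that excludes 1 separates 2 libraries here, not 2 conditions. In ADAR2 against control and ADAR2+SRSF9 against ADAR2 the ADAR2 library enters both, with opposite sign.

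**Figure D2:**
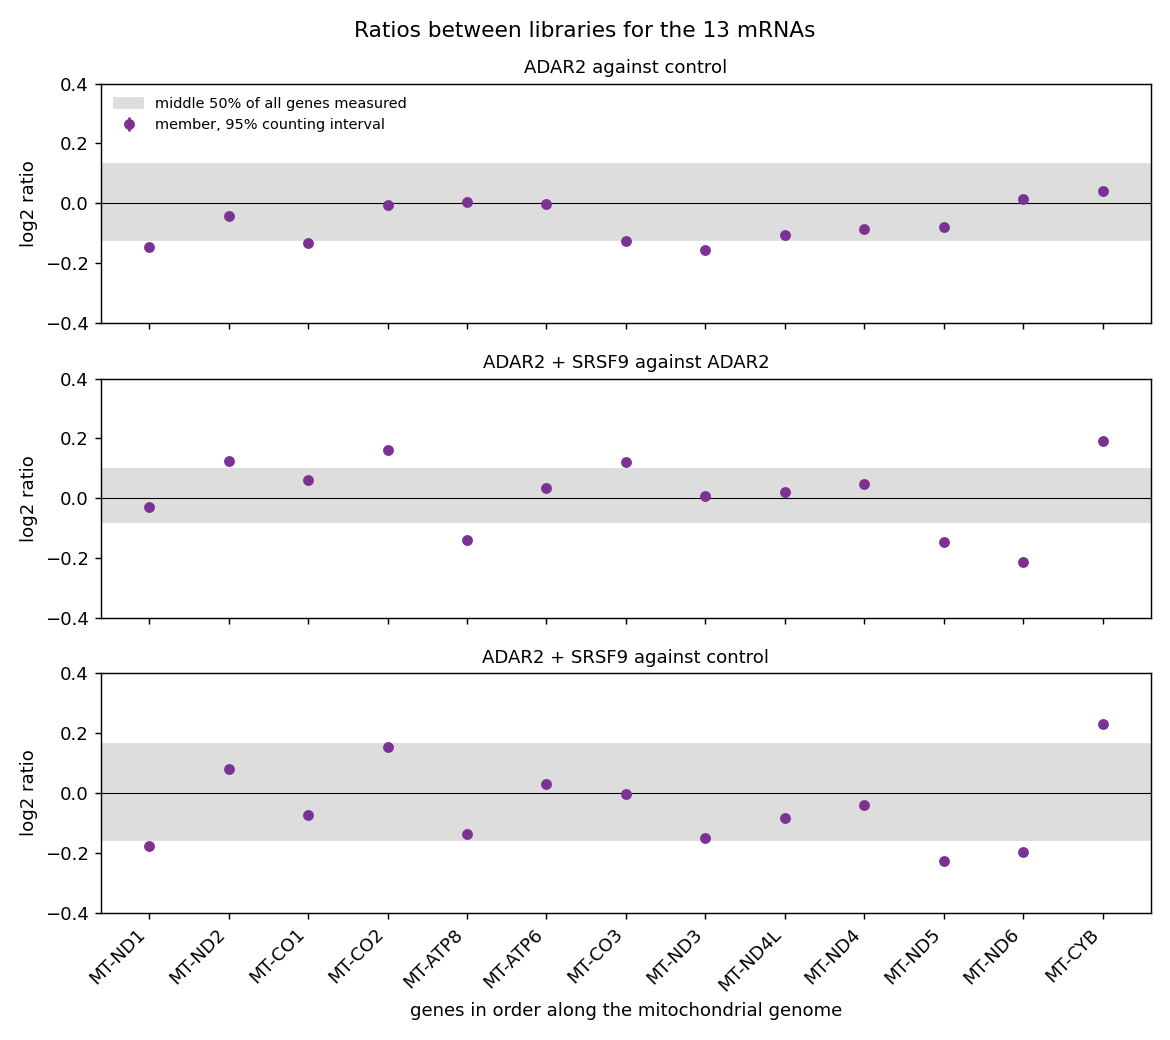
Log2 ratio between libraries (vertical axis) of the 13 genes in genome order, one panel per comparison, with 95% counting intervals that are mostly smaller than the points; the grey band is the middle 50% of 16072 genes. In ADAR2 + SRSF9 against ADAR2, MT-CYB, MT-CO2, MT-ND2 and MT-CO3 lie above the band and MT-ND5, MT-ND6 and MT-ATP8 below it.

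Complex I, the NADH dehydrogenase that passes electrons from NADH to ubiquinone, takes 7 of the 13 genes. These encode the membrane arm, in which MT-ND2, MT-ND4 and MT-ND5 are the antiporter-like proton-pumping subunits and MT-ND1 lies next to the ubiquinone site. Together they held 41.7%, 41.4% and 39.9% of the members' reads.

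MT-ND1 was at 3462 CPM in control cells, 3125 CPM with ADAR2 and 3061 CPM with ADAR2+SRSF9. Both overexpressing libraries were below the control, at 0.903 (0.899 to 0.906) and 0.884 times its level. MT-ND2, the next coding gene along the genome, was at 4352, 4221 and 4597 CPM. It was lowest in the ADAR2 library and at 1.089 times that level with SRSF9 added (1.085 to 1.093). The ratio of MT-ND1 to MT-ND2 reads, which needs no library scaling, was 0.795 in control cells (0.793 to 0.798), 0.740 with ADAR2 (0.737 to 0.743) and 0.666 with ADAR2+SRSF9 (0.663 to 0.669). It was lowest in the ADAR2+SRSF9 library. The 3 intervals do not overlap, but they cover counting error only and separate libraries, not conditions.

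MT-ND3, a small subunit at the junction of the 2 arms, was at 1207, 1084 and 1088 CPM. It had the lowest ratio of ADAR2 against control among the members, 0.898 (0.892 to 0.904). With the GC trend removed its log2 ratio was -0.02, and those of MT-ND1 (-0.11), MT-CO1 (-0.06) and MT-CO3 (-0.06) were lower. The level of MT-ND3 hardly differed between the 2 overexpressing libraries, with a ratio of 1.004 (0.996 to 1.01). MT-ND4L and MT-ND4 share 1 bicistronic messenger RNA. MT-ND4L was at 1529, 1420.3 and 1441 CPM and MT-ND4 at 11981, 11291 and 11664 CPM. Reads of MT-ND4L per read of MT-ND4 were 0.128, 0.126 and 0.124, so the pair moved nearly together over the libraries.

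MT-ND5 was at 4386 CPM in control cells, 4154 CPM with ADAR2 and 3748 CPM with ADAR2+SRSF9. The last of these was 0.902 times the ADAR2 level (0.899 to 0.906) and 0.855 times the control (0.851 to 0.858), the lowest ratio to the control among the 13 genes. MT-ND6, which is encoded on the other strand and adjoins MT-ND5, was at 1348, 1363 and 1177 CPM. The control and the ADAR2 library were close, at a ratio of 1.01 (1.005 to 1.02). The ADAR2+SRSF9 library was at 0.863 times the ADAR2 level (0.857 to 0.870), the lowest ratio among the members in that comparison. Reads of MT-ND5 per read of MT-ND6 were 3.25, 3.05 and 3.19, a narrower range than that of either level.

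Complex III, the cytochrome bc1 complex, has 1 mitochondrially encoded subunit, the cytochrome b of MT-CYB, which binds both b-type haems. MT-CYB was at 4551 CPM in control cells, 4680.5 CPM with ADAR2 and 5343 CPM with ADAR2+SRSF9. It was 1.028 times the control with ADAR2 (1.025 to 1.032), and with SRSF9 added it was 1.142 times the ADAR2 level (1.137 to 1.146) and 1.174 times the control (1.170 to 1.178). These were the highest ratios among the 13 genes in each of the 3 comparisons. With the GC trend removed, MT-ATP8 (0.1435) and MT-ND6 (0.1246) were above MT-CYB (0.1067) in log2 ratio of ADAR2 against control. MT-CYB stayed the highest in both comparisons with the third library. In the genome MT-CYB follows MT-ND6, from which it is parted by the transfer RNA gene MT-TE. Reads of MT-CYB per read of MT-ND6 were 3.38 in control cells (3.36 to 3.39), 3.43 with ADAR2 (3.42 to 3.45) and 4.54 with ADAR2+SRSF9 (4.51 to 4.57). Per read of MT-ND5 they were 1.04, 1.13 and 1.43. Both ratios were thus highest with ADAR2+SRSF9.

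Complex IV, cytochrome c oxidase, takes its 3 core subunits from mitochondrial DNA and held 41.2%, 40.5% and 41.6% of the members' reads. MT-CO1, which binds the haem-copper centre where oxygen is reduced, was at 15839, 14458 and 15064 CPM, and was the member with the most reads in each library. MT-CO2, which receives electrons from cytochrome c, was at 7008, 6973 and 7791 CPM. The control and the ADAR2 library were near equal, at a ratio of 0.995 (0.992 to 0.998), and the ADAR2+SRSF9 library was at 1.117 times the ADAR2 level (1.114 to 1.121). MT-CO3, the third core subunit, was at 5059, 4639 and 5046 CPM. It was lowest in the ADAR2 library, at 0.917 times the control (0.914 to 0.920), while the other 2 libraries were at a ratio of 0.997 (0.994 to 1.001). Reads of MT-CO1 per read of MT-CO2 were 2.26, 2.07 and 1.93, and reads of MT-CO1 per read of MT-CO3 were 3.13, 3.12 and 2.99.

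Complex V, the ATP synthase, has 2 mitochondrially encoded subunits of its membrane part: MT-ATP6, which forms the proton channel with the rotating ring, and the small subunit MT-ATP8. MT-ATP6 was at 6339, 6331 and 6479 CPM, with a ratio of 0.999 for ADAR2 against control (0.996 to 1.002). MT-ATP8 was at 695, 698 and 632 CPM, with a ratio of 1.003 in that comparison (0.994 to 1.01). Both intervals include 1. MT-ATP8 was at 0.906 (0.897 to 0.916) and MT-ATP6 at 1.023 (1.020 to 1.027) in ADAR2+SRSF9 against ADAR2, and both are read from the same bicistronic messenger RNA. Reads of MT-ATP8 per read of MT-ATP6 were 0.110, 0.110 and 0.0976 in the 3 libraries.

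Directions this small were compared under 5 ways of scaling the libraries, each of which shifts all genes of a comparison by the same amount. The largest shift from TMM was -0.0451 in log2, so only members with ratios near 0 could change sign. In ADAR2 against control 8 members were below and 2 above the control (MT-ND6 and MT-CYB) under all 5, and the sign of MT-CO2, MT-ATP6 and MT-ATP8 changed with the scaling. Between the 2 overexpressing libraries, 6 were higher in the third under all 5 (MT-CYB, MT-CO2, MT-ND2, MT-CO3, MT-CO1 and MT-ND4) and 4 below (MT-ND6, MT-ND5, MT-ATP8 and MT-ND1), while MT-ND3, MT-ATP6 and MT-ND4L changed sign. In ADAR2+SRSF9 against control 9 were below and 3 above (MT-CYB, MT-CO2 and MT-ND2), and MT-ATP6 changed sign. With the GC trend removed, 5, 4 and 5 members were below 0 in the 3 comparisons, in place of 10, 4 and 9.

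The composition of the mitochondrial reads does not depend on library scaling. From the ADAR2 library to the ADAR2+SRSF9 library the share of MT-CYB went from 7.26 to 7.96% and that of MT-CO2 from 10.8 to 11.6%. The share of MT-ND5 went from 6.45 to 5.58%, that of MT-ND6 from 2.12 to 1.75% and that of MT-ATP8 from 1.08 to 0.942%. MT-CO1 held 23.4% in the control and 22.4% in both other libraries. From control to ADAR2 the share of MT-CYB went from 6.72 to 7.26% and that of MT-ND6 from 1.99 to 2.12%. The members spread more widely in ADAR2+SRSF9 against ADAR2 (SD over the 13 log2 ratios 0.12, range 0.40) than in ADAR2 against control (SD 0.07, range 0.20). Over all 16072 genes the SDs were 0.26 and 0.22, while the quartiles were narrower in the first of these comparisons (-0.08 and 0.10) than in the second (-0.12 and 0.13). Over the 12765 protein-coding genes measured the SDs were 0.19 and 0.20, so the wider spread of the members was not shared by those genes.

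Sequence features of the members were set beside the ratios as a description over 13 genes that share libraries. Pearson's r between GC content and log2 ratio was -0.15 for ADAR2 against control, 0.46 for ADAR2+SRSF9 against ADAR2 and 0.34 for ADAR2+SRSF9 against control. For coding length r was -0.16, 0.13 and 0.04. MT-ND6 differs from the others in composition, with 35.6% G and 7.05% C against 6.28 to 16.2% G in the other 12, since its messenger RNA has the sequence of the opposite strand. The 6 genes that end in a partial stop codon had log2 ratios of -0.03 to 0.19 in ADAR2+SRSF9 against ADAR2 (median 0.08), and the 7 with a whole one -0.21 to 0.16 (median 0.02). In ADAR2 against control the medians were -0.11 and -0.0073. The ranges of the 2 kinds overlapped in both.

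The nucleus holds many inserted copies of mitochondrial genes, and reads can match both. The table held 390 rows that it or the reference names as copies of the 13 genes, of which 23 had a mean of 1 CPM or more. In all, the 390 rows had 602380, 509042 and 300623 reads, which is 5.44%, 5.56% and 4.46% of the reads of members and copies together. By alignment of GENCODE v29 transcripts, the 23 copies were 88.2 to 99.1% identical to their parent over the aligned part. The one with the most reads was MTCO1P12, whose row carries the symbol hsa-mir-6723. It was 98.6% identical to MT-CO1 and had 260812, 215724 and 127832 reads. The first stretch of 30 bases with the most differences is shown for this pair (bases 310 to 339 of MT-CO1), with the differing bases in capitals, to show how few bases part a copy from its parent.
MT-CO1: ctcttaccTccctctctcctactcctgctC
MTCO1P12: ctcttaccCccctctctcctactcctgctT
The pair differs at 2 of these 30 bases, and its longest run without a difference was 245 nt.

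Copies and parents had different ratios in ADAR2+SRSF9 against ADAR2. The median log2 ratio of the 23 copies was -0.43, that of the 13 members 0.03, and 21 of 23 copies were below their own parent. MTATP8P2 and MTCO2P22 were the exceptions. Processed pseudogenes of any parent had much the same median in this comparison, -0.46 over 1094 measured genes (quartiles -0.61 and -0.28), of which 15 are among the copies. The copies' ratios ran from -1.32 (MTATP8P1) to 0.28 (MTCO2P22), and 8 of 23 were lower by 1.5-fold or more, against 2.52% of all genes in that direction and 28.2% of the processed pseudogenes. The copy of MT-ND2, MTND2P28, was close to the ADAR2 level (-0.05), and MTND1P23, a copy of MT-ND1 with 99.1% identity, was at -0.66. In ADAR2 against control the median of the copies was 0.0061 and 19 of 23 were above their parent, none by 1.5-fold from the control. Over the 23 copies, Pearson's r between identity and log2 ratio in ADAR2+SRSF9 against ADAR2 was -0.06. Over the 12 copies with a mean of 10 CPM or more it was 0.21. Nuclear copies of the mitochondrial ribosomal RNA (MTRNR2L genes, 8 of 13 measured) ran from -2.15 to -0.28 in ADAR2+SRSF9 against ADAR2. Adding each parent's copies to it moved the summed log2 ratio of ADAR2+SRSF9 against ADAR2 from 0.06 to 0.04, and that of MT-CO1 from 0.06 to 0.03. MT-CYB stayed at 0.19, MT-ND5 at -0.15 and MT-ND6 went from -0.21 to -0.23. MT-ND2 went from 0.12 to 0.10 and MT-ATP6 from 0.03 to 0.0092. The copies held 13.1%, 12.9% and 11.6% of the reads of MT-ND2 and its copies, and 9.56%, 9.61% and 8.09% for MT-ATP6. How reads that match a copy and its parent were assigned is not given in the sources used here, and their part in the copies' ratios was not tested.

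**Figure D3:**
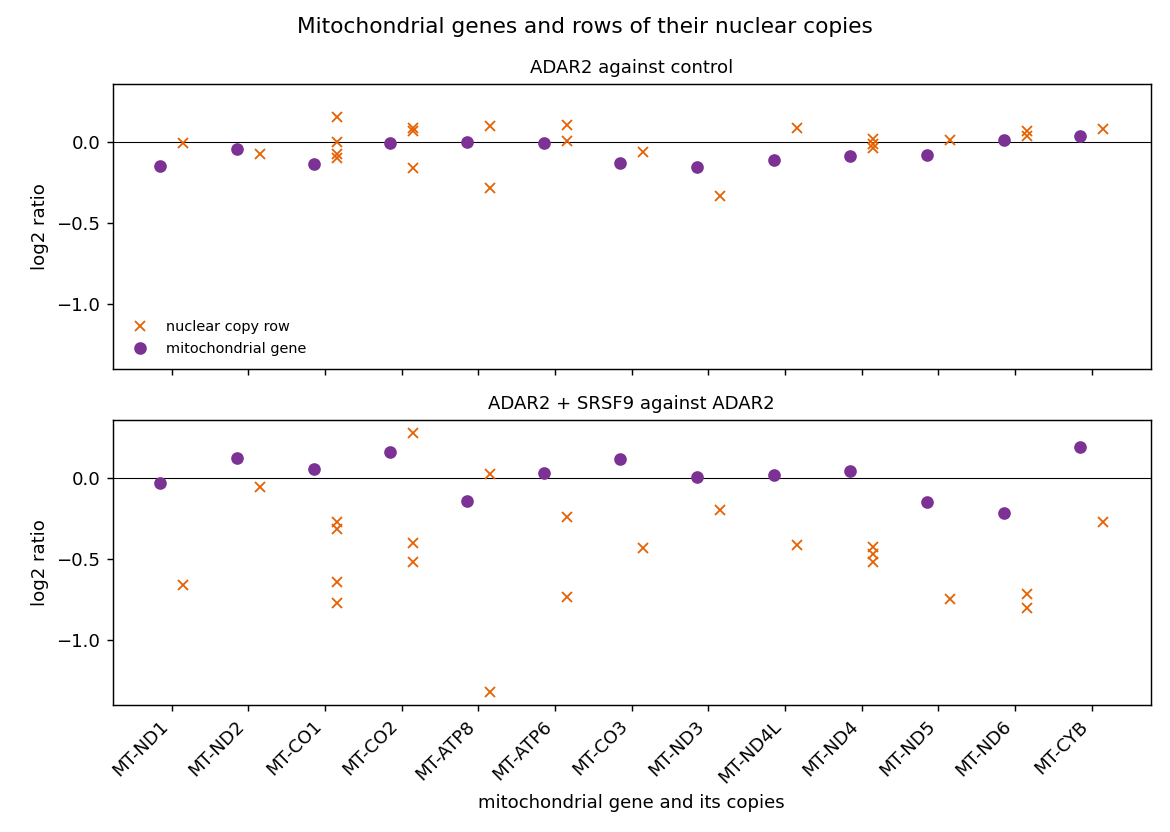
Log2 ratio (vertical axis) of each mitochondrial gene (circles) and of its nuclear copy rows with a mean of 1 CPM or more (crosses, 23 rows), for ADAR2 against control (upper panel) and ADAR2 + SRSF9 against ADAR2 (lower panel). In the lower panel 21 of 23 copies lie below their parent gene.

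Nuclear genes encode the remaining subunits of the same complexes. Of 78 such genes listed for complexes I to V, 77 were measured, and 0 were 1.5-fold apart in each comparison. Their median log2 ratios were 0.03, 0.03 and 0.0350 in the order ADAR2 against control, ADAR2+SRSF9 against ADAR2, ADAR2+SRSF9 against control, beside -0.08, 0.03 and -0.07 for the 13 mitochondrial genes and -0.0009, 0.01 and -0.01 for all genes. By complex, the nuclear subunits of complex I (37 measured) had medians of 0.07, 0.03 and 0.0850, where the mitochondrial ones had -0.09, 0.01 and -0.15. For complex III (9 measured) the nuclear medians were 0.03, 0.06 and -0.01, beside 0.04, 0.19 and 0.23 for MT-CYB. For complex IV (10 measured) they were 0.02, 0.02 and 0.02, beside -0.12, 0.12 and -0.0037 for the mitochondrial genes. For complex V (17 measured) they were -0.01, 0.0034 and 0.01, beside 0.0013, -0.05 and -0.05. With the GC trend removed, the complex I medians against the control were 0.0022 with ADAR2 and -0.0093 with ADAR2+SRSF9 for the mitochondrial genes, beside 0.09 and 0.09 for the nuclear ones. For complex IV these were -0.06 and 0.05 beside 0.06 and 0.09, and for complex V 0.12 and 0.07 beside 0.06 and 0.03. MT-CYB was then at 0.11 and 0.29 beside nuclear complex III medians of -0.05 and -0.02.

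**Figure D4:**
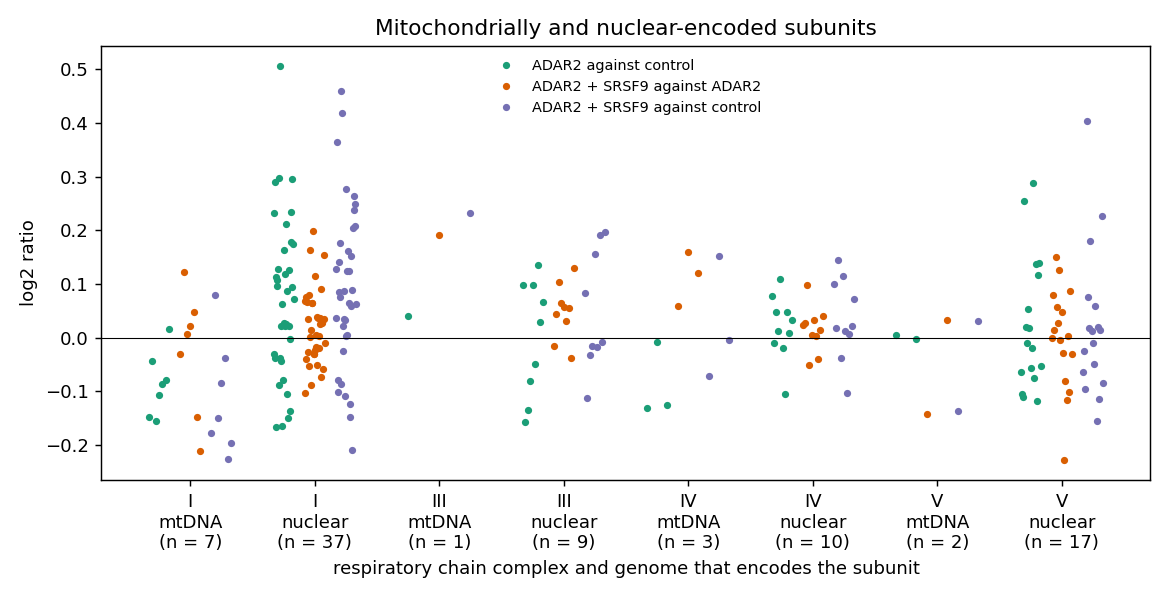
Log2 ratio (vertical axis) of each measured subunit of complexes I, III, IV and V, grouped by complex and by the genome that encodes it, with 1 point per gene and 1 colour per comparison. The mitochondrial complex I genes lie lower than most nuclear ones against the control, with medians of -0.09 and -0.15 beside 0.07 and 0.0850 (0.0022 and -0.0093 beside 0.09 and 0.09 with the GC trend removed).

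The ends of the nuclear lists are given as log2 ratios in the same order of comparisons. In complex I they were NDUFA13 (0.51) and NDUFA5 (-0.17), then NDUFB3 (0.20) and NDUFA2 (-0.10), then NDUFA11 (0.46) and NDUFS4 (-0.21). In complex II, which has no mitochondrially encoded subunit, they were SDHA (0.11) and SDHD (-0.26), SDHD (0.09) and SDHB (-0.08), then SDHA (0.11) and SDHD (-0.17). In complex III they were UQCR10 (0.14) and UQCRC2 (-0.16), CYC1 (0.13) and UQCR11 (-0.04), then CYC1 (0.20) and UQCRC2 (-0.11). In complex IV they were COX6B1 (0.11) and COX7A2 (-0.11), COX5B (0.10) and COX6A1 (-0.05), then COX5B (0.14) and COX7A2 (-0.10). In complex V they were ATP5I (0.29) and ATP5L (-0.12), ATP5D (0.15) and ATP5I (-0.23), then ATP5D (0.40) and ATP5J (-0.16). Against the control, the high end of each list had a higher GC content than the low end, as in NDUFA13 (62.0%) and NDUFA5 (35.0%). The part of GC content in these ratios was not tested. NDUFA13 was also low in level, at 2.4, 3.4 and 3.2 CPM.

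The genes that copy, transcribe and process mitochondrial RNA were likewise within 1.5-fold, in each list and comparison. POLRMT, the mitochondrial RNA polymerase, was at 111, 126 and 139 CPM, which is 1.136 times the control with ADAR2 (1.112 to 1.160) and 1.249 times with ADAR2+SRSF9 (1.221 to 1.278). TFAM, which packages the genome and starts transcription, was at 84.4, 73.4 and 74.2 CPM, below the control in both overexpressing libraries. LRPPRC, which stabilises the messenger RNAs, was at 268, 233 and 229 CPM, and its partner SLIRP at 63.8, 64.0 and 67.6 CPM. The GC content of their longest transcripts was 66.3% (POLRMT), 38.4% (TFAM), 42.4% (LRPPRC) and 39.4% (SLIRP), and its part in these ratios was not tested for single nuclear genes.

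For mitochondrial transcription (9 of 9 genes measured) the median log2 ratios were -0.05, 0.07 and 0.04. The ends were POLRMT (0.18) and MTERF (-0.23), TFB1M (0.18) and TEFM (-0.08), then POLRMT (0.32) and TFAM (-0.19). For replication and the nucleoid (15 of 15) the medians were -0.08, 0.06 and 0.03, with ATAD3B (0.30) and TFAM (-0.20), PRIMPOL (0.40) and RRM2B (-0.18), then ATAD3B (0.40) and RRM2B (-0.37) at the ends. For RNA processing, stability and decay (24 of 25) they were -0.10, 0.08 and -0.01, with FASTK (0.22) and FASTKD5 (-0.29), PTCD1 (0.35) and FASTKD1 (-0.18), then FASTK (0.41) and LRPPRC (-0.23). FASTKD5 belongs to a family of mitochondrial RNA-binding proteins and is needed to release messenger RNAs that no transfer RNA flanks. For modification of transfer and ribosomal RNA (24 of 24) the medians were 0.02, 0.05 and 0.08, with GTPBP3 (0.22) and TRMT5 (-0.23), PUS1 (0.22) and NSUN3 (-0.11), then PUS1 (0.40) and METTL15 (-0.27). TFAM and TFB1M are each in 2 of these lists. Here too the high end of each list had a higher GC content than the low end against the control, and its part was not tested.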

How the data were processed

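The table that the authors deposited holds raw counts, whole reads for each of 57268 identifiers. Per the labels' protocols, Trizol-purified total RNA went into a directional library kit. No step of messenger RNA enrichment, counting program or strand setting could be read from the labels. The submitters' processing notes name hg19, STAR, Picard, GATK and SAMtools. Each column was matched to a sample by its library code.

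TMM scaling of the libraries used edgeR 4.0.16 in R 4.3.3. Ratios had a prior count of 0.5, and their 95% counting intervals were exact (Clopper-Pearson). Genes with a mean of 1 CPM or more entered the counts, and a gene was apart when its ratio passed the fold given and its interval excluded 1. With 1 library per group no p-value is given. Gene types, lengths, GC content (of the longest transcript) and sequences came from GENCODE v29 (GRCh38), matched by identifier, and no coordinates were converted. The GC trend was a smoothed median in equal-number bins of nuclear protein-coding genes. Copies were aligned to their parents by local pairwise alignment. Python 3.11.15, numpy 2.4.6, pandas 2.3.3, scipy 1.17.1, Biopython 1.88 and matplotlib 3.10.9 were used. Simulated counts for 16072 genes were drawn from Poisson distributions, with no spread between libraries beyond counting error. All 67 genes set 2.5-fold higher and all 67 set 2.5-fold lower were recovered in each of the 3 comparisons. Such a recovery was nearly fixed in advance at these depths, and it does not bear on the calls at 1.1-fold or 1.2-fold.

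The members, gene lists and rules were chosen with earlier results of these data known. All members are named. Each nuclear list is given by its members at 1.5-fold, or by its highest and lowest ratio in each comparison where there are none, with POLRMT, TFAM, LRPPRC and SLIRP in any case. Sums over ribosomal and transfer RNA genes were planned and not run, since no row matched. The 1.1-fold threshold, the nuclear copies, the sums with copies and the counts and complex medians with the GC trend removed were added after the data were seen, as was the choice of the copies named. Some planned marker levels and a sequence are not reported here.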

Additional observations from a re-analysis of the deposited data

How the results depend on the processing

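With 1 library per group, the spread between libraries of a group is unknown, and the counting intervals do not include it. No paired analysis was possible because each group has 1 library, and there was no replicate to leave out. No member was 1.5-fold apart in any comparison under each other setting tried (1.2-fold, 2-fold, no filter on low counts, a mean of 10 CPM, a prior count of 5, DESeq2 1.42.0 size factors and plain library totals, and, added after seeing the data, the GC trend removed). Most of these outcomes were nearly fixed in advance. A gene within 1.5-fold is also within 2-fold. All members had at least 632 CPM and 60611 reads, so the filters and the prior count had little to act on. The widest member log2 ratios, in ADAR2+SRSF9 against control, were -0.2267 and 0.2315, and another scaling moved them by -0.0451 at most. At 1.1-fold, the 2 members apart in ADAR2 against control became 1 with DESeq2 size factors 1 with TMM on libraries without the MT- rows, ADARB1 and SRSF9, 1 with the GC trend removed and 3 with upper-quartile scaling. The 5 in ADAR2+SRSF9 against ADAR2 became 4 with plain totals and 4 with the GC trend removed. The 6 in ADAR2+SRSF9 against control became 7 with upper-quartile scaling and 5 with the GC trend removed. The share of all genes was not counted under these settings, so these counts have no background share. The summed log2 ratio of the members in ADAR2 against control was -0.0724, and became -0.0580 with DESeq2 size factors, -0.0818 with upper-quartile scaling, -0.0548 with TMM without those rows and -0.0707 with the reads of nuclear copies added, a setting chosen after seeing the data. The members' median was -0.0785, and 0.0034 with the GC trend removed. In ADAR2+SRSF9 against ADAR2 the sum was 0.0591, and became 0.0457 with DESeq2 size factors, 0.0144 with plain totals, 0.0620 with upper-quartile scaling, 0.0416 with TMM without those rows and 0.0425 with copies added, beside medians of 0.0334 and, with the GC trend removed, 0.0307. In ADAR2+SRSF9 against control the sum was -0.0133, and became -0.0584 with plain totals, -0.0197 with upper-quartile scaling and -0.0282 with copies added, beside medians of -0.0723 and, with the GC trend removed, 0.0170. Against the control, the sign thus turned with the GC trend removed in both comparisons. The largest shift of all genes by another scaling was -0.0451. Sums for ribosomal and transfer RNA genes were not run.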
